A study of Mus musculus with 6 samples.

Results

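The 35 genes described here encode the fatty acid oxidation pathway of the mouse heart, from uptake of carnitine and fatty acids to the electron carriers that feed the respiratory chain, together with the enzymes that burn ketone bodies. They were chosen by name, and all 35 were found among the 24239 rows of the per-mouse expression table. All 35 had a mean of at least 1 FPKM (fragments per kilobase of transcript, scaled to library size by the authors) and were tested. Ventricles came from male C57BL/6 mice aged 8 to 10 weeks, 3 in the pacing group and 3 in the sham group. Paced mice had a bipolar catheter placed in the esophagus next to the atria, and the atria were driven with a beat every 120 ms for 3 min, shortened to 80 ms for 45 min and returned to 120 ms for 3 min. This was done daily for 5 days and, after 2 days without pacing, for 3 further days. The labels describe sham mice as controls without pacing and give no further detail of the sham procedure. The labels name no transgene or drug in either group. The comparison sets ventricles after 8 days of pacing against ventricles without it.

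The adult heart takes most of its energy from fatty acids. Long-chain acyl groups are bound to coenzyme A, carried into the mitochondrion as carnitine esters, and shortened in a repeating cycle of dehydrogenation, hydration, a further dehydrogenation and thiolysis that yields acetyl-CoA. Ketone bodies made by the liver are a second fuel, and the heart turns them back into acetyl-CoA. Many of these genes are targets of the nuclear receptor PPAR alpha, of the estrogen-related receptors and of their coactivator PGC-1 alpha.

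Most of these transcripts lay slightly lower after pacing, and 3 of them stood apart from the rest: Ucp3, which encodes uncoupling protein 3, Oxct1, the enzyme that commits ketone bodies to oxidation in heart muscle, and Acot2, a mitochondrial acyl-CoA thioesterase. Their mean FPKM in paced mice was 73.9%, 79.4% and 81.8% of the sham mean. On log2(FPKM + 1), the scale of all fold changes below, the median difference of pacing minus sham over the 35 genes was -0.10, with 33 of 35 negative, beside a median of -0.01 over all 11994 genes tested, of which 51.8% were negative. Over the 5322 tested genes within the range of mean FPKM of the 35, the median was -0.03 and 59.3% were negative. After rescaling every library to the same sum, 22 of 35 were negative and the median was -0.02, beside 0.06 over all genes. In that fit 32 of the 35 lay below the median of all genes, beside 33 without rescaling. After centring every library on its median, 35 of 35 were negative, with a median of -0.13 beside -0.03 over all genes. None of the 35 genes passed limma's test at an adjusted p under 0.05 over all genes tested, where the background was 0% in each direction. At an unadjusted p under 0.05, 3 genes were lower (Acot2, Oxct1 and Ucp3), a share of 8.57% beside 3.69% of all genes, and 0 were higher, beside 5.17%. In 6 of the 35 genes (17.1%) all 3 paced mice lay below all 3 sham mice, beside 6.97% of all genes, and in 0 all lay above, beside 6.24%. The authors' deposited table called Ucp3 lower and none of the other 34 genes, where it called 0.308% of genes with at least 1 FPKM on average lower and 2.45% higher. At a stricter q under 0.01 it called 0 of the 35, beside 0.0917% of genes lower and 1.65% higher. In bulk tissue, fewer cells of a type and less RNA per cell cannot be told apart.

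The libraries differed in the levels of markers of several cell types, given here once for all comparisons below. Markers of ventricular heart muscle were present in all mice. All 8 had a negative log2 fold change, from -0.38 (Actc1) to -0.02 (Tnnt2), with a median of -0.20. Their summed level was 63705 to 65732 FPKM in paced mice and 66865 to 87166 FPKM in sham mice, with sham 1 the lowest of the sham mice. Of 10 atrial muscle markers, 9 were tested and 9 had a positive fold change. Of these 1 was higher at an unadjusted p under 0.05, beside 5.17% of all genes, and 0 were higher without overlap, beside 6.24%. Their sum was 5793, 14777 and 10589 FPKM in pacing 1, 2 and 3 and 12760, 436 and 5340 FPKM in sham 1, 2 and 3. Of 10 fat markers, 9 were tested and 9 had a positive fold change. Here 8 were higher at an unadjusted p under 0.05 and 4 were higher without overlap, beside the same shares of all genes. Adipoq stood at 72.8, 36.2 and 28.6 FPKM in pacing 1, 2 and 3 and at 27.0, 2.14 and 1.94 FPKM in sham 1, 2 and 3. Of 7 brown fat markers 5 were tested, with 3 positive and 2 negative (0 higher and 1 lower at an unadjusted p under 0.05). Ucp1 stood at 48.6, 30.2 and 1.06 FPKM in pacing 1, 2 and 3 and at 21.1, 3.34 and 1.08 FPKM in sham 1, 2 and 3. Cidea stood at 100, 51.3 and 37.3 FPKM in pacing 1, 2 and 3 and at 48.6, 40.7 and 39.3 FPKM in sham 1, 2 and 3. The lower gene of this list was Cox7a1, at 4197 to 4473 FPKM in paced mice and 5085 to 5713 FPKM in sham mice. The other negative gene, Cox8b, stood at 2746 to 3478 FPKM in paced mice and 3187 to 3643 FPKM in sham mice. Both lay far above Ucp1 and Cidea in every mouse, and the part of brown fat in their levels was not tested. Of 6 fibroblast markers 6 had a positive fold change (4 at an unadjusted p under 0.05), summing to 889 to 1207 FPKM in paced mice and 726 to 906 FPKM in sham mice. Of 6 macrophage markers 6 were positive (1 at an unadjusted p under 0.05), summing to 293 to 387 FPKM in paced mice and 198 to 315 FPKM in sham mice. Of 4 erythrocyte markers tested 3 were higher at an unadjusted p under 0.05, summing to 159 to 323 FPKM in paced mice and 85.1 to 140 FPKM in sham mice. Of 6 endothelial markers 6 were negative (2 at an unadjusted p under 0.05), summing to 259 to 296 FPKM in paced mice and 292 to 330.2 FPKM in sham mice. Lung epithelial markers summed to 2.45, 313 and 1719 FPKM in pacing 1, 2 and 3 and to 0.472 to 4.97 FPKM in sham mice. Sham 1 thus carried atrial and fat transcripts at levels close to those of paced mice. The 5 hepatocyte markers summed to 0.275 to 0.359 FPKM in paced mice and 0.05 to 0.342 FPKM in sham mice. Alb, Fgb and Serpina1c were listed at the table's floor of 0.01 FPKM in all mice, while Ttr reached 0.319 FPKM and Apoa1 0.157 FPKM. Of 6 skeletal muscle markers, Ckm and Acta1, which heart also expresses, were tested and did not pass, Tnnt3 reached 1.08 FPKM, and the myosins Myh1, Myh2 and Myh4 stood at no more than 0.0421 FPKM. The effective depth ranged from 7756000 to 8908000 fragments in paced mice and from 6266000 to 7894000 fragments in sham mice, so that 1 FPKM over 2 kb stands for 12.5 to 17.8 fragments.

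The levels of the 35 genes also differed between mice of the same group. Relative to each gene's mean over the 6 mice, their median level was 0.03, -0.07 and -0.12 (log2) in pacing 1, 2 and 3 and -0.15, 0.18 and 0.12 in sham 1, 2 and 3, while the median over all genes tested stayed within 0.01 of 0 in each mouse. Sham 1 was the lowest sham mouse for 29 of the 35 genes and lay below every paced mouse for 17. Sham 2 lay above every paced mouse for 31 genes and sham 3 for 25. Together the 35 genes held 3.95%, 3.55% and 3.77% of all FPKM in pacing 1, 2 and 3 and 3.45%, 4.23% and 3.90% in sham 1, 2 and 3, so that the groups overlapped. The spread within the sham group, as highest over lowest mouse, exceeded that within the paced group for 30 of the 35 genes. Leaving out sham 1, the median log2 fold change was -0.20 and 10 genes were lower at an unadjusted p under 0.05, beside 6.11% of all genes, with 24 not overlapping, beside 16.5%. Leaving out sham 2, the median was -0.02, with 23 of 35 negative, and without pacing 3 it was -0.05. With the level of the atrial genes Myl7, Myl4 and Sln as a covariate the median was 0.011, and with that of the fat genes Adipoq, Plin1 and Cidec it was 0.084. The fat level differs between the groups, so the fit with it cannot tell fat content and pacing apart. The atrial level, centred on the 6 mice, was 0.26, 1.87 and 1.325 in pacing 1, 2 and 3 and 1.36, -4.78 and -0.04 in sham 1, 2 and 3. The fit with the atrial level thus leans on sham 2 and cannot tell atrial content from other traits of that mouse. In the fit with the fat level 1 of the 35 genes, Ucp3, was lower at an unadjusted p under 0.05, beside 1.38% of all genes. Centred on the 8 ventricular markers, a choice made after seeing the data, the median was 0.13 beside 0.22 over all genes, with 10 of 35 genes higher and 0 lower without overlap, beside 31.3% and 0.15% of all genes. In that fit 1 gene was higher at an unadjusted p under 0.05, beside 24.4% of all genes, and 0 lower, beside 0.0584%. Without pacing 2 and pacing 3, which held the most lung transcripts, 1 gene was lower at an unadjusted p under 0.05, beside 2.02% of all genes, and 10 were lower and 2 higher without overlap, beside 25.5% and 22.7%. After rescaling to the same sum 3 were lower without overlap, beside 2.72%. Acot2, Oxct1 and Ucp3 kept a negative sign in each of these fits. The part of tissue makeup in the differences was not tested beyond them.

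**Figure D1:**
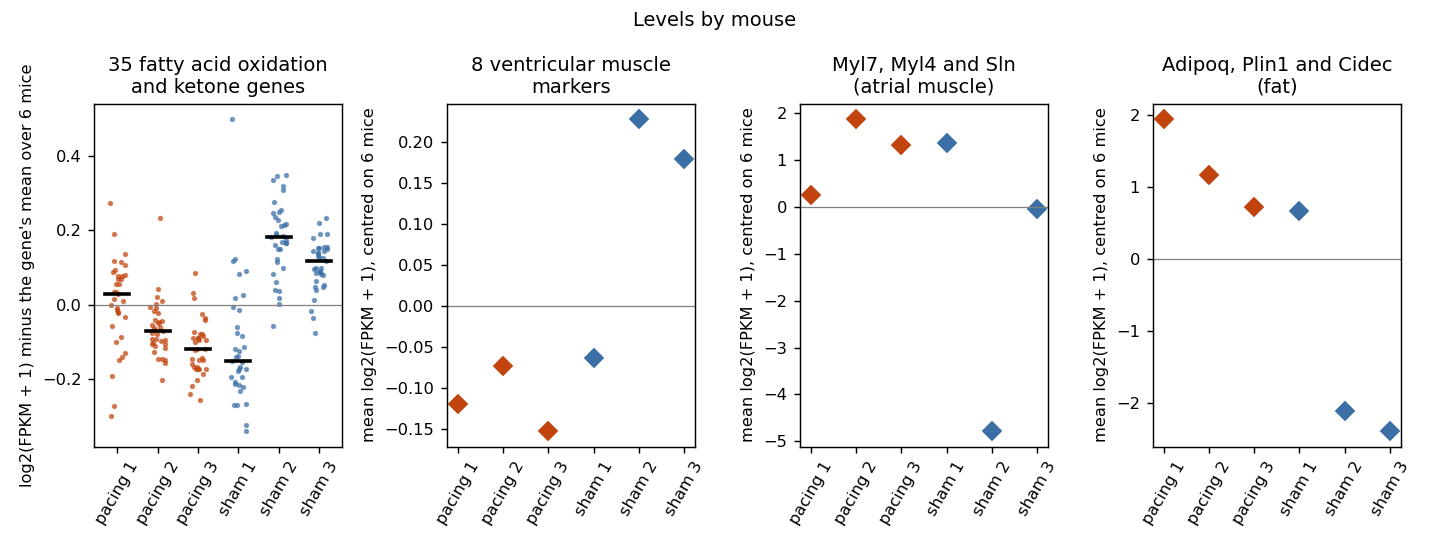
The left panel plots the 35 genes in each mouse (points; bars are medians) as log2(FPKM + 1) minus the gene's mean over 6 mice, and the other panels plot the mean log2(FPKM + 1) of ventricular, atrial and fat markers, centred on the 6 mice. The median of the 35 genes was highest in sham 2 and sham 3 (0.18 and 0.12) and lowest in sham 1 (-0.15), below all paced mice.

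Ucp3, an inner membrane carrier of muscle mitochondria whose expression follows fatty acid supply, had the most negative fold change with all mice included. Its level was 53.1, 60.8 and 56.1 FPKM in pacing 1, 2 and 3 and 92.9, 62.9 and 74.3 FPKM in sham 1, 2 and 3. The groups did not overlap, but the lowest sham mouse stood close to the highest paced mouse, and sham 1, low for most of the other genes, was here the highest. Without sham 1 the log2 fold change was -0.27, and 6 of the other genes, Oxct1 first among them at -0.40, were then more negative. The means were 56.7 ± 3.92 and 76.7 ± 15.2 FPKM in paced and sham mice (SD, n = 3 each), a log2 fold change of -0.41 (SE 0.14, 95% interval -0.72 to -0.10, adjusted p = 0.478 by limma). The authors' deposited table gave a log2 fold change of -0.44 with q = 0.0149. Acot2, which cleaves long-chain acyl-CoA in the mitochondrial matrix, stood at 20.6, 20.8 and 19.9 FPKM in pacing 1, 2 and 3 and at 24.1, 25.6 and 25.2 FPKM in sham 1, 2 and 3. Both groups were tight and clearly separate, with means of 20.4 ± 0.433 and 25.0 ± 0.764 FPKM in paced and sham mice (SD, n = 3 each) and a log2 fold change of -0.28 (SE 0.07, 95% interval -0.45 to -0.11, adjusted p = 0.399 by limma). Its cytosolic neighbour Acot1, 15626 bases away on chromosome 12, stood at 9.60, 10.7 and 11.4 FPKM in pacing 1, 2 and 3 and at 12.1, 11.8 and 11.2 FPKM in sham 1, 2 and 3, and the groups overlapped. Of the runs of 100 bases in Acot2 transcripts 17.1% also occur in Acot1, so that the split of fragments between the pair is uncertain. Acot13, a thioesterase bound to mitochondria, was the most abundant of these enzymes at 638, 627 and 575 FPKM in pacing 1, 2 and 3 and 642, 666 and 755 FPKM in sham 1, 2 and 3. Its groups did not overlap, though pacing 1 and sham 1 nearly met (log2 fold change -0.16 with SE 0.09, adjusted p = 0.674 by limma). Without sham 3 the log2 fold change was -0.09.

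**Figure D2:**
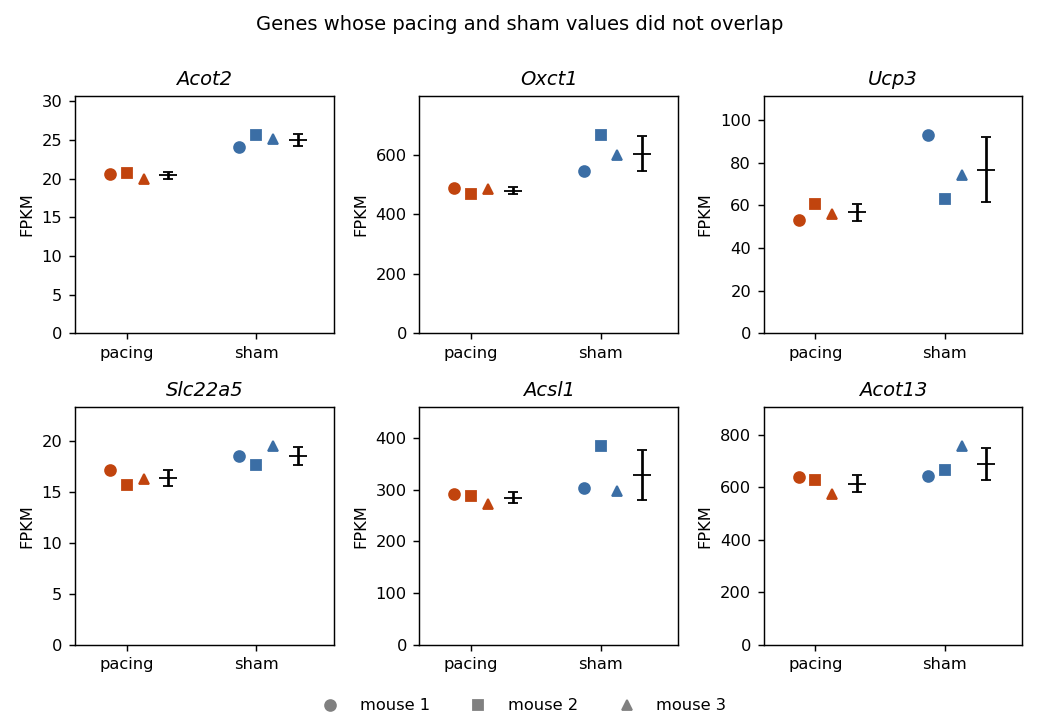
FPKM of the 6 genes whose 3 paced values (left, orange) all lay below their 3 sham values (right, blue), with mean and SD in black and the replicate number as the symbol. Acot2 and Oxct1 show the widest gaps relative to their spread, and for Ucp3, Slc22a5, Acsl1 and Acot13 the nearest mice of the groups almost met.

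Upstream sequences of the 3 genes with the smallest p, and of Hadhb, which shares its promoter region with Hadha, are shown to set their receptor motifs side by side. They are the 250 bases before the RefSeq start (build GRCm38.p6, the mm10 assembly of the deposited tables), 5′ to 3′ on the plus strand, the strand of all 4 genes. The RefSeq start equals the deposited gene start for Ucp3, Acot2 and Hadhb, whereas that of Oxct1 lies 6317 bases inside the gene as deposited, so that its stretch is upstream of the RefSeq start only. Capitals mark AGGTCA, the core element of nuclear receptors, and in Acot2 a match to the looser direct repeat AGNNCANAGNNCA, both searched on both strands.
Ucp3, chr7:100472741-100472990: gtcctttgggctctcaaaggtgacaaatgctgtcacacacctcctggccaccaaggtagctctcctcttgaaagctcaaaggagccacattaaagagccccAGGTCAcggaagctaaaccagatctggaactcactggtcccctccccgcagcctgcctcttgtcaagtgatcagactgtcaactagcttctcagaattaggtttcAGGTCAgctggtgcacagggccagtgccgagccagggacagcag
Oxct1, chr15:4026178-4026427: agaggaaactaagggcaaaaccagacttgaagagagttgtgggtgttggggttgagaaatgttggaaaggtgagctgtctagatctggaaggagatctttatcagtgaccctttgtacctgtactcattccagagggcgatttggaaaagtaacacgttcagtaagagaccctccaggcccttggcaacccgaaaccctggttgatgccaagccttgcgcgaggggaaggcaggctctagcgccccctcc
Acot2, chr12:83987611-83987860: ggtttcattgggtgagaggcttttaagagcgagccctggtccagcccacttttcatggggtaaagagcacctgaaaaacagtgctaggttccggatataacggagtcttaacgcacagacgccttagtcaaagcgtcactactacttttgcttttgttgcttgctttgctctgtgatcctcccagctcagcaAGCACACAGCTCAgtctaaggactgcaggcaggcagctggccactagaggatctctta
Hadhb, chr5:30155003-30155252: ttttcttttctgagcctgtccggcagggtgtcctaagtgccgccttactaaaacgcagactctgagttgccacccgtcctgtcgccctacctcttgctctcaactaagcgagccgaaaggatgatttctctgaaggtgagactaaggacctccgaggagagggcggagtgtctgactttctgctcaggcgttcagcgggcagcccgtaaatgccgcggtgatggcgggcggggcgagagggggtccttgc

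Of the 35 genes 29 have an entry in the RefSeq promoter table, and for 23 of these an entry begins at the deposited gene start. AGGTCA occurs in 5 of these 29 (Acadm, Acadvl, Cpt1a, Echs1 and Ucp3), a share of 17.2% beside 15.8% of all 27025 genes with an entry, and Ucp3 has 2 matches. The looser direct repeat, which can overlap AGGTCA, occurs in 1 of 29, beside 2.69% of all genes. The strict direct repeat AGGTCANAGGTCA occurs in 0 of 29, beside 0.0407%, and the estrogen-related receptor element TNAAGGTCA in 0 of 29, beside 1.30%. These are matches of letters in a short window and describe neither binding nor its absence.

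In ketone body use, all paced mice lay lower for Oxct1, and the groups overlapped for its partner enzymes. Oxct1 moves coenzyme A onto acetoacetate, the step that lets muscle burn ketones. It stood at 487, 467 and 485 FPKM in pacing 1, 2 and 3 and at 547, 666 and 599 FPKM in sham 1, 2 and 3. All paced mice lay below all sham mice, sham 1 included, and the paced mice lay close together. The means were 480 ± 11.1 and 604 ± 59.6 FPKM in paced and sham mice (SD, n = 3 each), with a log2 fold change of -0.33 (SE 0.09, 95% interval -0.54 to -0.11, adjusted p = 0.428 by limma). Bdh1, which turns beta-hydroxybutyrate into acetoacetate, stood at 14.2, 18.8 and 13.1 FPKM in pacing 1, 2 and 3 and at 14.0, 19.1 and 16.8 FPKM in sham 1, 2 and 3. Acat1, the thiolase that splits acetoacetyl-CoA, ranged from 302 to 332 FPKM in paced mice and from 271 to 370 FPKM in sham mice. For both the groups overlapped. The 95% interval was -0.46 to 0.23 for Bdh1, which includes a difference as large as that of Oxct1, and -0.33 to 0.22 for Acat1.

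Of 6 other ketone body genes, 5 were tested. None passed at an adjusted p under 0.05 (lowest adjusted p = 0.379 by limma). At an unadjusted p under 0.05, 2 were higher and 0 lower, beside 5.17% and 3.69% of all genes. For both higher genes the groups did not overlap, beside 6.24% of all genes. Aacs, which activates acetoacetate for lipid synthesis, stood at 5.39, 4.46 and 3.99 FPKM in pacing 1, 2 and 3 and at 3.07, 1.18 and 1.01 FPKM in sham 1, 2 and 3 (log2 fold change 1.10 with SE 0.25, adjusted p = 0.379 by limma). Bdh2, a cytosolic dehydrogenase, stood at 1.59, 1.99 and 2.17 FPKM in pacing 1, 2 and 3 and at 1.15, 0.544 and 0.342 FPKM in sham 1, 2 and 3 (log2 fold change 0.82 with SE 0.20, adjusted p = 0.389 by limma). For both, sham 1 was the highest sham mouse, as it was for the fat marker Adipoq; the part of fat in these differences was not tested gene by gene. Bsg, the membrane partner of the monocarboxylate transporters that carry ketone bodies, stood at 1058, 999 and 915 FPKM in pacing 1, 2 and 3 and at 917, 1108 and 1250.0 FPKM in sham 1, 2 and 3, and the groups overlapped. The transporter Slc16a1 ranged from 53.3 to 61.1 FPKM in paced mice and from 51.9 to 62.4 FPKM in sham mice.

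**Figure D3:**
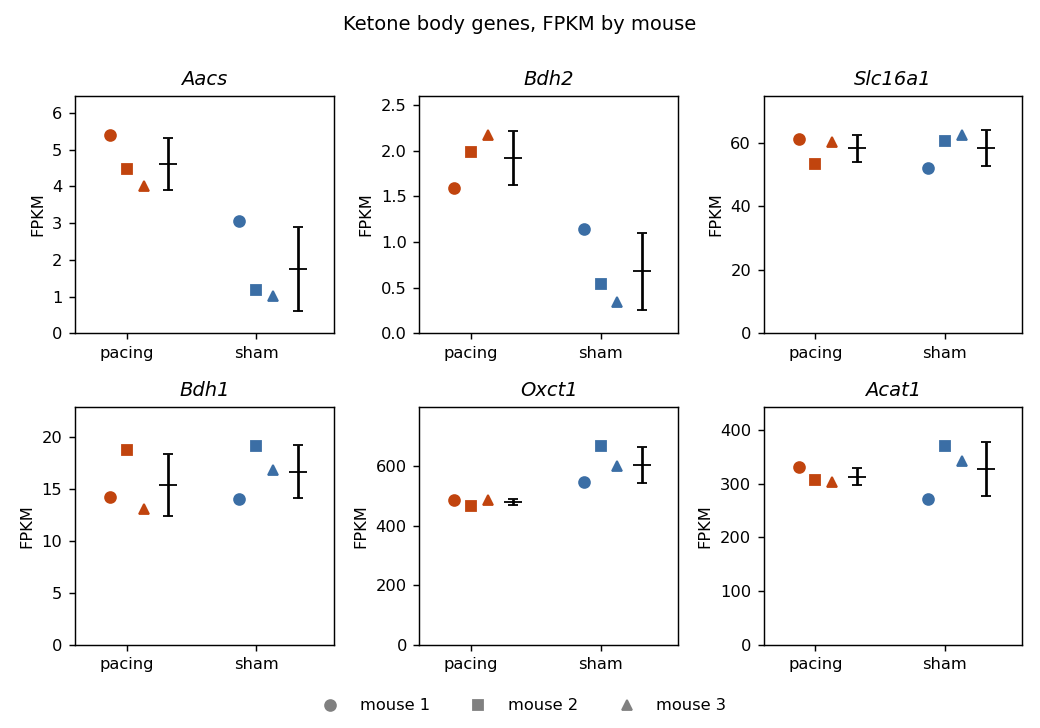
FPKM by mouse of 6 genes of ketone body use and transport, with paced mice left (orange) and sham mice right (blue), mean and SD in black and the replicate number as the symbol. Oxct1 lay lower in all paced mice (467 to 487 FPKM, against 547 to 666 FPKM in sham mice), while Aacs and Bdh2 lay higher.

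Among the genes of entry and activation all 4 fold changes were negative, beside 51.8% of all genes. For 2 of them all paced mice lay below all sham mice, beside 6.97% of all genes. Slc22a5, the carnitine transporter of the plasma membrane, stood at 17.1, 15.6 and 16.3 FPKM in pacing 1, 2 and 3 and at 18.5, 17.6 and 19.4 FPKM in sham 1, 2 and 3 (log2 fold change -0.17 with SE 0.08, 95% interval -0.35 to 0.01, adjusted p = 0.602 by limma). Acsl1, which activates long-chain fatty acids in heart, stood at 292, 288 and 272 FPKM in pacing 1, 2 and 3 and at 303, 384 and 297 FPKM in sham 1, 2 and 3. Its separation was narrow, and sham 2 stood well above the other sham mice (log2 fold change -0.19 with SE 0.11, adjusted p = 0.663 by limma). Without sham 2 the log2 fold change was -0.08. Fabp3, the fatty acid binding protein of heart cytosol, was by far the most abundant of the 35 genes at 9808, 9001 and 9754 FPKM in pacing 1, 2 and 3 and 8902, 11263 and 11784 FPKM in sham 1, 2 and 3. The paced mice lay between sham 1 and the other sham mice. Of the Fabp3 transcript runs of 100 bases 21.7% also occur in the annotated gene Fabp3-ps1. Of those of Slc22a5 12.9% also occur in Slc22a21, so that part of either signal is uncertain. Acss1, which makes acetyl-CoA from acetate in mitochondria, ranged from 141 to 162 FPKM in paced mice and from 121 to 196 FPKM in sham mice.

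In the carnitine shuttle 6 of 7 fold changes were negative, beside 51.8% of all genes, and all groups overlapped. Cpt1b, the muscle form of the transferase that commits fatty acids to oxidation, stood at 293, 315 and 290 FPKM in pacing 1, 2 and 3 and at 302, 343 and 350 FPKM in sham 1, 2 and 3 (log2 fold change -0.14 with SE 0.09, adjusted p = 0.684 by limma). Part of its signal is uncertain, because 75.6% of its transcript runs of 100 bases also occur in the annotated gene Gm44502. Cpt1a, the liver form, stood at 19.9, 23.5 and 25.7 FPKM in pacing 1, 2 and 3 and at 26.5, 25.3 and 24.9 FPKM in sham 1, 2 and 3. The ratio of Cpt1a to Cpt1b was 0.0771 ± 0.0108 in paced and 0.0776 ± 0.00884 in sham mice (SD, n = 3 each; exact permutation p = 1). Cpt2 and the translocase Slc25a20, which complete the shuttle, had log2 fold changes of -0.16 and -0.12, and the acetyltransferase Crat of -0.08. Acacb makes malonyl-CoA, the inhibitor of the shuttle, and Mlycd removes it. Acacb stood at 50.5, 41.5 and 35.1 FPKM in pacing 1, 2 and 3 and at 36.3, 47.4 and 41.1 FPKM in sham 1, 2 and 3, with a positive log2 fold change of 0.02 (95% interval -0.31 to 0.35). Mlycd stood at 82.2, 88.0 and 85.8 FPKM in pacing 1, 2 and 3 and at 82.4, 93.6 and 92.4 FPKM in sham 1, 2 and 3. Their ratio was 0.499 ± 0.105 in paced and 0.464 ± 0.0369 in sham mice (SD, n = 3 each; exact permutation p = 0.8).

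In the oxidation cycle itself all groups overlapped. All 4 acyl-CoA dehydrogenases, which act on chains of falling length, had negative log2 fold changes from -0.10 (Acadm) to -0.05 (Acads). Acadm, the medium-chain enzyme and the most abundant of them, stood at 1002, 859 and 897 FPKM in pacing 1, 2 and 3 and at 816, 1186 and 986 FPKM in sham 1, 2 and 3. The sham mice spanned the whole range of the paced mice. Among the later steps, the hydratase Echs1, the dehydrogenase Hadh and the mitochondrial thiolase Acaa2 had log2 fold changes of -0.10, -0.16 and -0.08. Acaa1a, the thiolase of peroxisomes, varied little, at 41.0, 40.1 and 41.0 FPKM in pacing 1, 2 and 3 and 41.0, 41.7 and 38.4 FPKM in sham 1, 2 and 3, with a log2 fold change of 0.01 (95% interval -0.16 to 0.18).

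Hadha and Hadhb encode the subunits of the mitochondrial trifunctional protein, which carries out the last steps for long chains. They lie head to head on mouse chromosome 5, Hadha from 30103584 to 30154980 and Hadhb from 30155253 to 30184593, with 272 bases between them, so that the Hadhb sequence above covers most of their common upstream region. Hadha stood at 584, 526 and 498 FPKM in pacing 1, 2 and 3 and at 465, 713 and 615 FPKM in sham 1, 2 and 3. Hadhb stood at 1919, 1681 and 1697 FPKM in pacing 1, 2 and 3 and at 1499, 2189 and 1931 FPKM in sham 1, 2 and 3. Of the Hadhb transcript runs of 100 bases 14.8% also occur in the annotated gene Gm13910. Both genes were lowest in sham 1 and highest in sham 2. Their ratio was 0.304 ± 0.00980 in paced and 0.318 ± 0.00771 in sham mice (SD, n = 3 each; exact permutation p = 0.2). It spanned 0.294 to 0.326 over the 6 mice, a narrow range beside those of the genes.

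For unsaturated fatty acids, the isomerases Eci1 and Eci2, the reductase Decr1 and the dienoyl-CoA isomerase Ech1 had log2 fold changes from -0.12 (Eci2) to -0.02 (Ech1). Ech1 was second only to Fabp3 in level, at 2817, 2429 and 2550 FPKM in pacing 1, 2 and 3 and 2092, 2935 and 2984 FPKM in sham 1, 2 and 3. Electrons leave the dehydrogenases through the flavoprotein subunits Etfa and Etfb and the oxidoreductase Etfdh, whose log2 fold changes were -0.04, -0.01 and -0.11. Etfb stood at 1222, 1232 and 1121 FPKM in pacing 1, 2 and 3 and at 1063, 1200 and 1365 FPKM in sham 1, 2 and 3, and 35.8% of its transcript runs of 100 bases also occur in the annotated gene Gm45233. Etfa stood at 749, 646 and 655 FPKM in pacing 1, 2 and 3 and at 622, 777 and 715 FPKM in sham 1, 2 and 3. In all of these the groups overlapped. The ratios of Etfa to Etfb, Acot1 to Acot2 and Bdh1 to Oxct1 gave exact permutation p = 0.8, 0.2 and 0.4. Over the 6 ratios tested the lowest Benjamini-Hochberg value was 0.6, and 3 mice against 3 cannot give an exact p below 0.1.

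**Figure D4:**
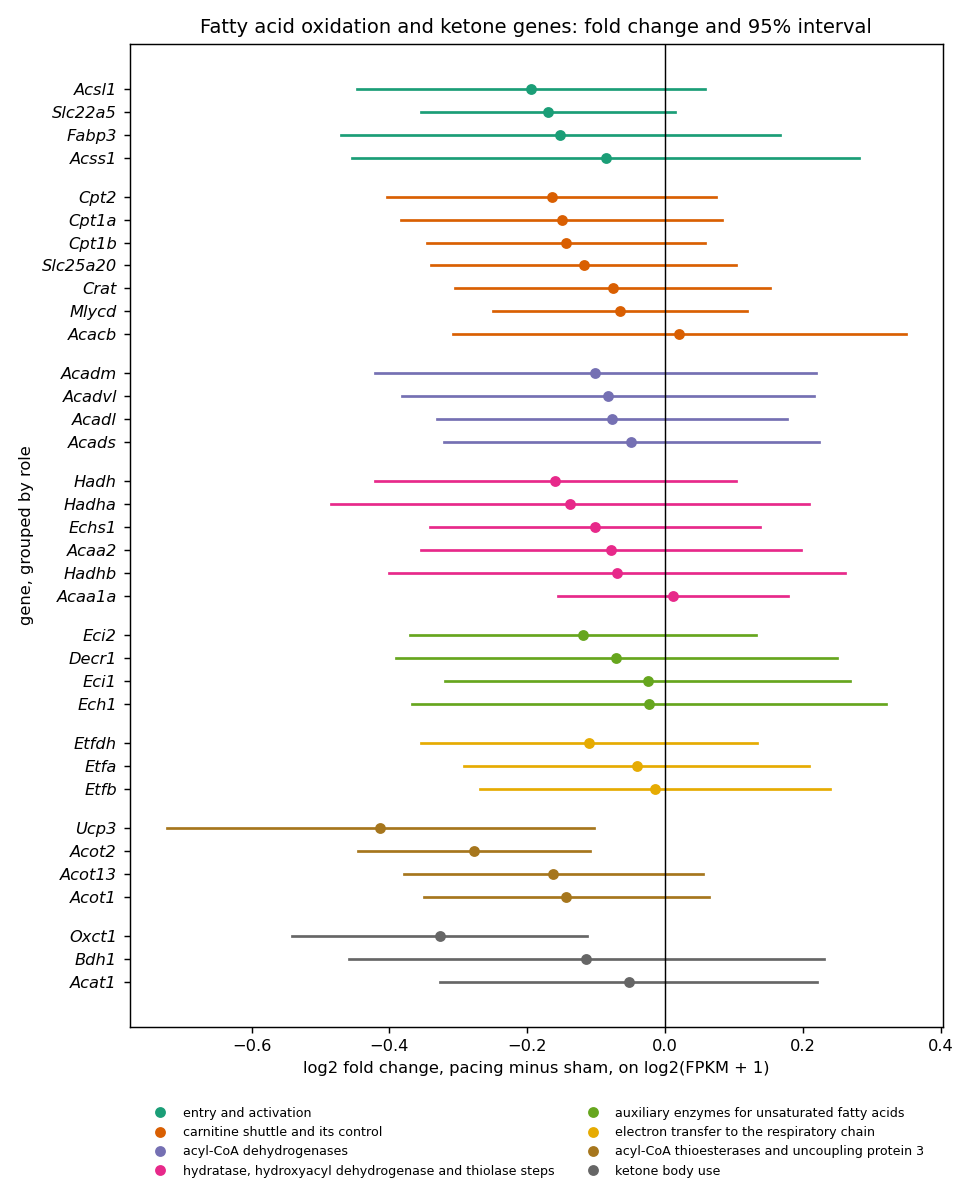
Log2 fold change (points) and 95% interval (lines) of the 35 genes by role, pacing minus sham on log2(FPKM + 1). Intervals of Ucp3, Acot2 and Oxct1 lie below 0, and those of the other 32 genes include 0.

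All 20 regulators of the pathway were tested, and at an unadjusted p under 0.05, 0 were higher, beside 5.17% of all genes, and 1 was lower, beside 3.69% (lowest adjusted p = 0.563 by limma). That gene was Med1, a coactivator subunit for PPAR receptors, at 8.39 ± 0.779 FPKM in paced and 10.0 ± 0.810 FPKM in sham mice (SD, n = 3 each). For all 20 regulators, Med1 included, the groups overlapped. Pparg, the fat cell receptor, stood at 12.9 ± 2.84 and 10.4 ± 1.32 FPKM in paced and sham mice (SD, n = 3 each), and the retinoid receptor Rxrg at 44.5 ± 5.10 and 50.2 ± 3.95 FPKM. Ppara itself ranged from 9.17 to 14.4 FPKM in paced mice and from 9.62 to 13.8 FPKM in sham mice. Of 10 PPAR alpha responsive genes outside the 35, 6 were tested. At an unadjusted p under 0.05, 1 was higher and 1 was lower, beside 5.17% and 3.69% of all genes. Ucp2 stood at 121 ± 31.9 FPKM in paced and 79.4 ± 24.1 FPKM in sham mice (SD, n = 3 each), and the lipid droplet protein Plin5 at 80.2 ± 6.00 and 92.9 ± 6.55 FPKM, while Plin2 stood at 44.8 ± 2.54 and 40.9 ± 2.73 FPKM. For all 6 tested genes of this list the groups overlapped.

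Of 42 other genes of the pathway 37 were tested (lowest adjusted p = 0.444 by limma). At an unadjusted p under 0.05, 2 were higher and 1 was lower, beside 5.17% and 3.69% of all genes. Abcd3, a fatty acid transporter of the peroxisome membrane, stood at 49.5, 52.0 and 50.6 FPKM in pacing 1, 2 and 3 and at 59.7, 62.9 and 58.5 FPKM in sham 1, 2 and 3, with no overlap (log2 fold change -0.25 with SE 0.07). Its relative Abcd2 lay higher, at 2.97, 2.83 and 3.22 FPKM in pacing 1, 2 and 3 and at 2.43, 2.24 and 1.75 FPKM in sham 1, 2 and 3, also with no overlap. Acaca, the acetyl-CoA carboxylase of fatty acid synthesis, stood at 9.48, 9.19 and 5.86 FPKM in pacing 1, 2 and 3 and at 6.55, 2.79 and 1.91 FPKM in sham 1, 2 and 3. Its groups overlapped, and as with Adipoq sham 1 was the highest sham mouse.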

How the data were processed

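Per the labels' protocols, polyA RNA from the ventricles of 6 mice went into stranded paired-end libraries. The submitters' processing notes list Cuffdiff, Cufflinks, Bowtie2 2.2.6, TopHat2 2.1.0, FastQC 1.0.0 and mm10, without roles, annotation or settings. The authors deposited FPKM values per gene and mouse, with 0.01 where no fragment is reported. Their second table, per the file headers, holds group FPKM, a log2 fold change and a q-value. Deposited starts count from 0 and were raised by 1: so shifted, 590 of 714 genes with 1 exon and the same end equal the GENCODE start. Effective depth was chosen, over 644 genes with 1 exon, to make values under 10 fragments whole multiples of 1 fragment (tolerance 0.05). The 47 to 61 such values per library met this in 100% of cases, which is the criterion fitted and not a separate check. 

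FPKM are not counts, so limma 3.58.1 in R 4.3.3 (trended eBayes, no covariate, two-sided, Benjamini-Hochberg) was fitted to log2(FPKM + 1) over 11994 genes averaging at least 1 FPKM. This scale understates changes of low genes. A row with a failed estimate in sham 2 was left out. The series design describes 3 animals per group, so p-values measure spread between mice. At most 0.0135% of values were identical between any pair of libraries. The fit was tested on simulated data. The genes, lists and alternatives were chosen with earlier results of these data known. Mouse by mouse values were given for the 6 genes of lowest p in either direction, the most abundant gene of each role and the genes of 6 ratios. Of each other list the 3 genes with the smallest p were given. Those of the regulators and the PPAR alpha responsive genes were given as mean and SD only. Ppara and Slc16a1 were added after their values were seen. Some genes of the ketone body list are not reported here. Replicate numbers showed no sign of pairing the mice.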

Additional observations from a re-analysis of the deposited data

How the results depend on the processing

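Over 21 alternatives none of the 35 genes passed an adjusted p under 0.05 in limma, and Acot2, Oxct1 and Ucp3 stayed negative in all 21. Their unadjusted p was under 0.05 in 18, 18 and 17 of them. Ucp3 missed it narrowly with no filter (0.0508) and after rescaling to the same sum (0.0507), and Acot2 and Oxct1 missed it with the fat covariate (0.10 and 0.231). All 3 also missed it after centring on the ventricular markers, where 0 of the 35 genes were lower. Over the 21 alternatives the log2 fold changes nearest to 0 were -0.05 for Acot2, -0.10 for Oxct1 and -0.18 for Ucp3. Of the 33 genes with a negative fold change, 22 stayed negative whichever mouse was left out and 11 were positive in at least 1 such fit; the cause was not tested. Leaving out each mouse in turn, the count of all genes at an adjusted p under 0.05 ranged from 0 to 106 higher and from 0 to 1 lower. That of the 35 genes lower at an unadjusted p under 0.05 ranged from 3 to 10, beside 2.45% to 6.11% of all genes. That of the 35 genes lower without overlap ranged from 6 to 24, where the count of 24 stood beside 16.5% of all genes. Apart from the count of 1 gene lower at an adjusted p under 0.05, also reached without pacing 1, the highest counts came without sham 1. The median ranged from -0.20 to -0.02 and the negative fold changes from 23 to 34.

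Counts of all genes higher at an adjusted p under 0.05 were 6 with no filter, 1 with robust eBayes and 7 with a replicate block, with 0 of the 35 genes among them. Deviations of mice with the same number correlated at -0.125, -0.0225 and -0.0201, so no sign of pairing by number was seen. With 3 mice per group such correlations cannot exclude a pairing. After rescaling to the same sum, 3 of the 35 genes were lower without overlap, beside 2.72% of all genes, and 22 were negative; among all genes at an unadjusted p under 0.05, 86.7% were then higher, beside 58.4%, and 45.8% after centring on medians. Without pacing 2 and pacing 3, where the lone paced mouse is assumed to vary like the sham mice, 19 were negative, 1 was lower at an unadjusted p under 0.05 (Cpt1a), and 10 lower and 2 higher did not overlap, beside 25.5% and 22.7% of all genes. With the atrial covariate, which leans on sham 2, the median log2 fold change was 0.011 and 16 were negative. With the fat covariate it was 0.084 and 10 were negative, and 1 was lower at an unadjusted p under 0.05 (Ucp3).

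Centring on the 8 ventricular markers, chosen after seeing the data, shifted the median of all genes by 0.23. The median of the 35 genes was then 0.13, beside 0.22 over all genes. With it 3 were negative, 10 were higher and 0 lower without overlap, beside 31.3% and 0.15% of all genes, and 1 was higher (Etfb, 0.21) and 0 lower at an unadjusted p under 0.05, beside 24.4% and 0.0584% of all genes; 2 of all genes were higher at an adjusted p under 0.05. A stricter q under 0.01 in the authors' deposited table left 0 of the 35 genes. A single gene was labelled as reversed only where an unadjusted p was under 0.05 in either fit. The counts of negative and positive fold changes used the sign alone, whatever the p.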
